A study of Mus musculus with 24 samples.

Results

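A set of 10 genes of heme breakdown and iron handling, the members, was followed in Ku70-deficient mouse embryonic fibroblasts (MEFs) exposed to the oxidizing agent potassium bromate (KBrO3), to bisphenol A (BPA), or to both. The members were Hmox1, Blvra, Blvrb, Fth1, Ftl1, Tfrc, Slc40a1, Slc11a2, Ireb2 and Aco1. They were chosen by gene name on Agilent 1-color whole mouse genome arrays, where 16 of 41174 probes carried 1 of these names or an older synonym. All 24 arrays came from immortalized Ku70-/- MEFs, so the controls carried the deletion too, and nothing here compares these cells with cells that have Ku70.

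The arrays fell into separate sets that were processed with different releases of the scanner software. The first set held untreated control cells labelled 4 hr, cells given KBrO3 alone (20 mM for 1 hr, then 3 or 23 hr without it, called 4 hr and 24 hr), and cells given the co-exposure (150 μM BPA for 1 hr, then BPA with 20 mM KBrO3 for 1 hr, then BPA for 3 or 23 hr). The second set held untreated control cells with no time in the labels and cells given 150 μM BPA alone for 4 or 24 hr by the labels, to which the study's methods add the hour of BPA before. Each of the 8 groups had 3 arrays, described as biological replicates in the study's methods. The first set held no 24 hr control, so both times were compared with the same 4 hr control arrays and a change with time in untreated cells cannot be told apart from a change with treatment at 24 hr. Comparisons with control within a set share their control arrays. In the first set 1 control array lay on the slide of the KBrO3 4 hr arrays and the others on a slide of their own, while the KBrO3 24 hr and co-exposure arrays lay on further slides. A slide effect therefore cannot be told apart from a treatment effect in the first set's other comparisons with control, between the KBrO3 times, in co-exposure against KBrO3 at 4 hr, or in the change of that difference with time.

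Heme oxygenase 1, encoded by Hmox1, opens the heme ring and releases iron, carbon monoxide and biliverdin. The biliverdin reductases Blvra and Blvrb turn biliverdin into bilirubin, and ferritin, a shell of heavy (Fth1) and light (Ftl1) chains, stores the iron. The transferrin receptor Tfrc brings iron into the cell, Slc11a2 (DMT1) moves it out of endosomes, and ferroportin (Slc40a1) exports it. The iron regulatory proteins IRP1 (Aco1) and IRP2 (Ireb2) bind ferritin and Tfrc mRNAs when iron is scarce, holding back ferritin translation and protecting Tfrc mRNA from decay. In fibroblasts Hmox1 is a well known target of oxidative stress through the activator Nrf2 (Nfe2l2) and the repressor Bach1. An array measures mRNA, so translation and iron itself were not measured.

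Most member probes lie at the 3′ end of a transcript and are not printed. Slc11a2 and Ireb2 each also had a probe inside the coding sequence that gave other calls than the end probe, and the array also holds a probe named for Ftl2, a copy of Ftl1, which covers another stretch than the Ftl1 probe. In the Ftl1 line, capitals mark the start codon, and the line holds the stretch of that probe from this codon on.
Slc11a2 coding probe, mm7 chr15:100395330-100395389, minus strand: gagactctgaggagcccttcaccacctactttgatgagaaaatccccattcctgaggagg
Ireb2 coding probe, mm7 chr9:54938061-54938120, plus strand: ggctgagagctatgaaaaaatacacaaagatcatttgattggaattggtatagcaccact
Ftl1 probe from its start codon: ATGacctctcagattcgtcagaatt
Ftl2 probe, mm7 chr13:71338846-71338905, plus strand: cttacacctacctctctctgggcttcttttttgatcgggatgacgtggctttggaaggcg

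Between 57.7% and 68.1% of spots were well above background on the arrays of the first set, and between 76.4% and 79.4% on those of the second. Over 27180 probes tested in both sets, the median residual SD between replicate arrays was 0.106 (log2) among first-set arrays and 0.318 among second-set arrays. Replicates of the first set largely shared slides, and all arrays of KBrO3 4 hr and of co-exposure 4 hr did so. Those of the second set mostly lay on separate slides. The first SD therefore leaves out more of the spread between slides, and the SDs do not rank the precision of the treatment comparisons. The Xrcc6 (Ku70) probe was well above background on all 24 arrays, with group means from -0.58 to 0.51. Its place relative to the deleted part is not known here, so it does not check the genotype. Of 9 fibroblast markers, 9 were well above background on every control array of either set. Their summed log2 signal ran from 10.55 to 10.64 in control cells of the first set, from 10.44 to 10.53 in KBrO3 4 hr cells and from 10.01 to 10.06 in co-exposure 4 hr cells. It ran from 9.36 to 9.54 in KBrO3 24 hr cells and from 8.80 to 9.04 in co-exposure 24 hr cells. In the second set it ran from 9.40 to 9.61 in controls, from 9.34 to 9.60 after BPA 4 hr and from 9.09 to 9.31 after BPA 24 hr. In such bulk samples, fewer cells of a type and less RNA per cell cannot be told apart, and the part of these fibroblast shifts in the 4 and 24 hr results below was not tested. Of 6 macrophage markers, 2 were well above background on every array of the first-set controls, led by Cd14, and the list's summed signal ran from 1.37 to 1.43 in those controls, from 0.95 to 1.00 in co-exposure 4 hr cells and from 1.24 to 1.57 over the other treated arrays of the set. In the second set it ran from -0.55 to -0.17 in controls, from -0.10 to 0.11 after BPA 4 hr and from -0.20 to 0.12 after BPA 24 hr. The part of these shifts in the results below was not tested. Erythroid markers, which would bring heme genes of their own, summed to between -2.79 and -2.26 in the first-set controls and to at most -2.11 in any group, with Hba-a1 the brightest.

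Every level below is the log2 processed signal minus the 75th percentile of that array, and every difference is a difference of group means on that log2 scale, with its standard error (SE) from limma (n = 3 arrays a group). A gene is called higher or lower when limma's Benjamini-Hochberg adjusted p over all tested probes is under 0.05 and the difference is beyond 1.5-fold. Levels are compared within a gene only, since probes differ in brightness. In the first set 9 members were tested, because the Slc40a1 probe was not well above background throughout any group there, and in the second set all 10.

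KBrO3 4 hr raised 4 of 9 tested members and lowered 0. Of all tested probes 45.5% were called there, 23% as higher. The members' median log2 difference was 0.55 and that of all tested probes 0.06. After KBrO3 24 hr, 1 member was higher and 1 lower (33.2% of all probes called, 14.1% higher and 19.1% lower; median -0.04 against -0.02). Co-exposure 4 hr raised 4 and lowered 0 (54.4% of probes called, 29.9% higher; median 0.89 against 0.08), and co-exposure 24 hr raised 3 and lowered 0 (39.4% of probes called, 15.9% higher; median 0.29 against -0.07). BPA alone raised 2 of 10 members at 4 hr (4.24% of all probes called, 2.83% higher; median 0.20 against -0.03) and 3 of 10 at 24 hr (3.41% called, 1.39% higher; median 0.40 against -0.01). Counted in both directions, the members' calls after KBrO3 and co-exposure were thus no more frequent than those of all probes.

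**Figure D1:**
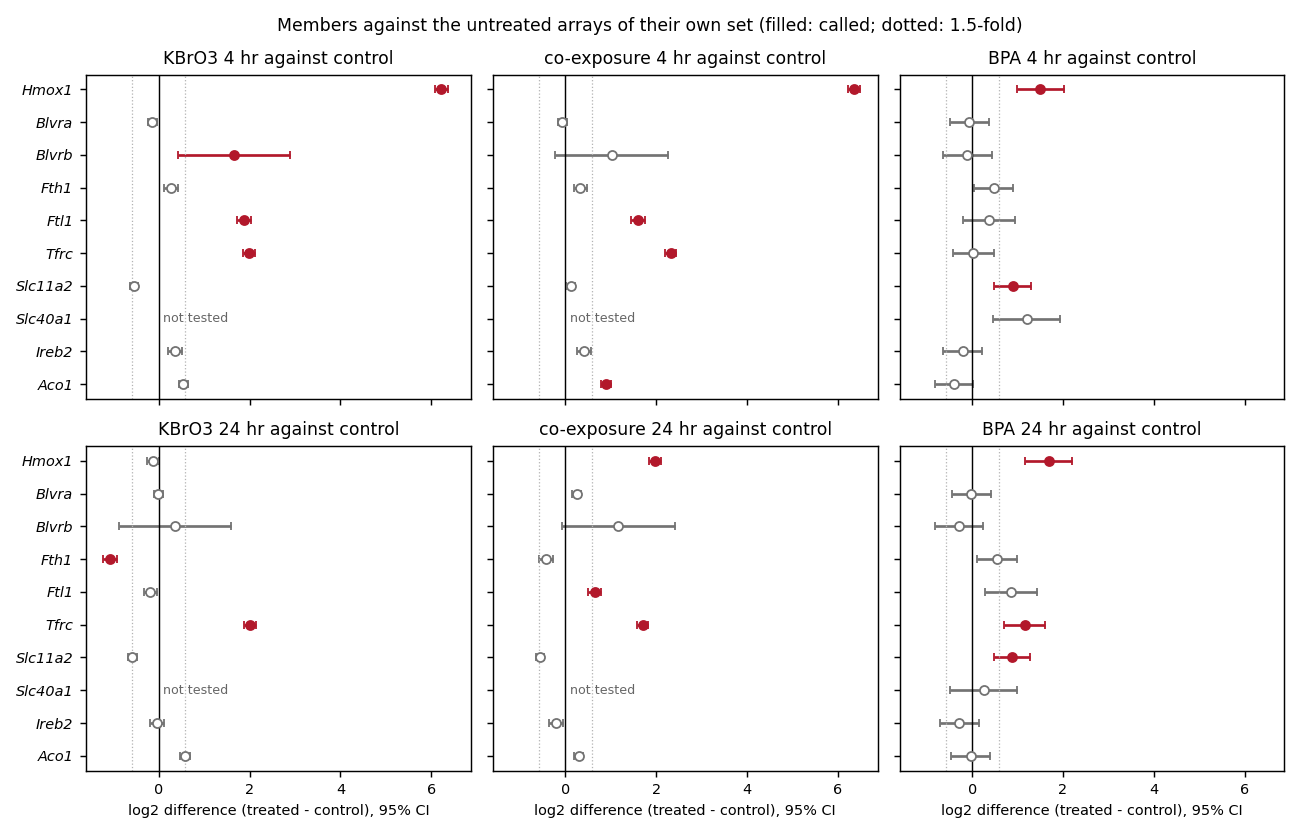
Log2 difference of each member from the control of its own array set (x axis) with its 95% confidence interval, for KBrO3 alone, co-exposure and BPA alone at 4 and 24 hr, with filled points for called differences and dotted lines at 1.5-fold. Hmox1 lies at 6.22 and 6.35 after KBrO3 and co-exposure at 4 hr, and at -0.13 and 1.98 at 24 hr.

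Hmox1 mRNA (GRCm38.p6 chr8:75093618-75100593) rose more than that of any other member after KBrO3 and co-exposure at 4 hr. Its log2 level was 2.94, 2.90 and 3.06 on the control arrays, 9.19, 9.13 and 9.25 after KBrO3 4 hr, and 9.36, 9.40 and 9.18 after co-exposure 4 hr. All 6 treated arrays lay above all 3 controls, and the spot of 1 co-exposure array (9.18) was saturated, so its own level may be understated. The fold change over control was 74.7 after KBrO3 (log2 6.22, SE 0.06, adjusted p = 6.12e-15, limma) and 81.4 after co-exposure (log2 6.35, SE 0.06, adjusted p = 6.87e-15).

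By 24 hr the Hmox1 levels of the treatments had parted. KBrO3 24 hr arrays read 2.80, 2.83 and 2.89, just under the lowest control array, and co-exposure 24 hr arrays read 4.98, 4.97 and 4.88. KBrO3 alone differed from control by -0.13 (95% interval -0.26 to 0.01, adjusted p = 0.0973) and passed neither limit of the call. Co-exposure stayed 3.93-fold above control (log2 1.98, adjusted p = 6.02e-11). Between 4 and 24 hr Hmox1 fell 81.6-fold after KBrO3 alone (adjusted p = 5.82e-15) and 20.7-fold after co-exposure (adjusted p = 8.39e-14), where the saturated 4 hr spot may understate the fold.

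BPA alone also raised Hmox1, in the second set. Levels were 2.50, 2.46 and 2.24 in control, 3.96, 3.77 and 3.97 at 4 hr, and 4.24, 4.40 and 3.63 at 24 hr, and no treated array overlapped the controls. The fold change was 2.83 at 4 hr (SE 0.23 on the log2 scale, adjusted p = 0.0088) and reached 3.22 at 24 hr (log2 1.69, SE 0.23, adjusted p = 0.00748). Between the BPA times Hmox1 was not called different. Arrays shared slides in part, and with slide as a fixed block the differences were 1.47 (adjusted p = 0.231) and 1.97 (adjusted p = 0.076), so these BPA calls were lost. Here and below, that fit leaves few second-set arrays to estimate the spread, so a BPA call lost in it does not show a slide effect. Without BPA 4 hr replicate 3 the 4 hr call was lost too (adjusted p = 0.0564). For KBrO3 4 hr, the single slide that also held a control array gave a difference of 6.13.

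The biliverdin reductases moved much less. Blvra (chr2:127070629-127097084) was called in 0 of the 12 comparisons fitted. Its levels ran from 1.30 to 1.80 on the first set's arrays, with the lowest in KBrO3 4 hr cells (1.42, 1.35 and 1.30) and the highest in co-exposure 24 hr cells (1.80, 1.69 and 1.75). The latter lay above all control arrays (1.52, 1.51 and 1.45), by 0.25 on the log2 scale, which is under the 1.5-fold limit. After BPA alone it differed by -0.06 and -0.02, and its other probe by 0.94 and 0.63, none of them called.

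Blvrb (chr7:27447978-27465981) rested on 1 control array. Its control levels were 1.21, 1.11 and -1.70, and the last of these stood apart from every other array of the first set. KBrO3 4 hr arrays read 1.87, 1.87 and 1.85, above all controls, which gave a difference of 1.66 (SE 0.57, adjusted p = 0.0196). Without control replicate 3 the difference was 0.70 (adjusted p = 2.41e-05), which was still called. Fitting only the groups compared, the call was lost (adjusted p = 0.118), as it was under Bonferroni limits, and with slide as a fixed block, which rests on the low control alone, the difference was 3.57. KBrO3 24 hr arrays read 0.47, 0.61 and 0.62, between the low control and the others, so the difference of 0.36 (adjusted p = 0.599) turned to -0.60 (adjusted p = 0.000122) and to a call of lower without that array. Co-exposure gave 1.24, 1.20 and 1.24 at 4 hr and 1.41, 1.53 and 1.17 at 24 hr, and neither was called with or without it. With that array left out, Blvrb was lower after co-exposure than after KBrO3 alone at 4 hr (-0.64, adjusted p = 5.8e-05) and higher at 24 hr (0.81, adjusted p = 1.1e-05), while with it in the fit neither was called (adjusted p = 0.353 and 0.267). With all arrays and slide as a fixed block, the 24 hr difference was 0.86 (SE 0.05, adjusted p = 1.94e-06) and was called.

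The ferritin chains did not move alike. Ftl1 (chr7:45457944-45459886), the light chain, read 5.49, 5.45 and 5.48 in control cells, 7.31, 7.32 and 7.40 after KBrO3 4 hr, and 7.04, 7.09 and 7.07 after co-exposure 4 hr. Both treated groups lay above control, with fold changes of 3.66 (log2 1.87, SE 0.07, adjusted p = 1.28e-10) and 3.02 (log2 1.59, adjusted p = 4.44e-10). At 24 hr it read 5.16, 5.34 and 5.37 after KBrO3 and 6.21, 6.17 and 5.96 after co-exposure. The KBrO3 arrays lay below all controls by 0.18 on average, inside the fold limit, and the co-exposure arrays above them by 1.56-fold (log2 0.64, adjusted p = 3.72e-06).

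Fth1 (chr19:9980600-9985111), the heavy chain with the ferroxidase site, read 8.42, 8.35 and 8.52 in control cells. It read 8.70, 8.60 and 8.82 after KBrO3 4 hr and 8.78, 8.86 and 8.65 after co-exposure 4 hr, higher on every array but by only 0.28 and 0.33, under the fold limit. After KBrO3 24 hr it read 7.34, 7.37 and 7.38, below all controls, a fall of 2.09-fold (log2 -1.07, SE 0.07, adjusted p = 4.64e-08). After co-exposure 24 hr it read 8.05, 8.03 and 7.94, also below all controls, by 0.42 (adjusted p = 0.000137), which is inside the fold limit. Between 4 and 24 hr of KBrO3 alone, 3 members fell and 0 rose (47.8% of all probes called, 27.9% lower), and besides Hmox1 these were Ftl1, by 4.15-fold (adjusted p = 7.77e-11), and Fth1, by 2.53-fold (adjusted p = 3.11e-09). Among the other probes, the Slc11a2 transcript probe rose by 0.65 between these times and the Ireb2 coding probe fell by 0.68, while their end probes were not called.

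With BPA alone neither ferritin chain was called. Ftl1 read 5.29, 5.28 and 4.92 in the second set's controls, 5.46, 5.33 and 5.80 at 4 hr, and 6.02, 6.45 and 5.58 at 24 hr. Every treated array was above every control, but the spread at 24 hr was wide (log2 0.85, SE 0.26, adjusted p = 0.117). Fth1 read 6.79, 6.73 and 6.68 in control, 7.04, 7.26 and 7.32 at 4 hr (log2 0.47, adjusted p = 0.228) and 7.43, 7.44 and 6.99 at 24 hr (log2 0.55, adjusted p = 0.175). The ferritin genes have near-identical copies in the mouse genome, so either probe may also read copies. The Ftl2-named probe printed above, chosen after its values were seen, gave a difference of 1.99 (SE 0.07) after KBrO3 4 hr, 1.76 after co-exposure 4 hr and 0.73 after co-exposure 24 hr, all called, and -0.02 after KBrO3 24 hr.

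Tfrc (chr16:32608896-32632794), the receptor for transferrin-bound iron, was higher at both times after KBrO3 and after co-exposure. Its probe is printed 10 times on the array. Control arrays read -0.64, -0.68 and -0.62, KBrO3 4 hr arrays 1.30, 1.37 and 1.36, and KBrO3 24 hr arrays 1.34, 1.40 and 1.35. The treated groups sat together about 2.0 log2 units above control, with fold changes of 3.98 (log2 1.99, SE 0.06, adjusted p = 1.75e-11) and 4.03 (log2 2.01, adjusted p = 3.92e-11), and differed from each other by 0.02. Co-exposure arrays read 1.66, 1.64 and 1.71 at 4 hr and 1.03, 0.94 and 1.20 at 24 hr. These groups did not overlap each other or control, with fold changes over control of 4.98 (adjusted p = 3.81e-12) and 3.25 (adjusted p = 9.9e-11).

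With BPA alone Tfrc was called at 24 hr and not at 4 hr. Controls read -1.08, -0.65 and -1.18, BPA 4 hr arrays -0.96, -0.90 and -0.97, and BPA 24 hr arrays 0.03, 0.36 and 0.15. The 4 hr arrays lay within the controls and the 24 hr arrays above both groups. The difference from control at 24 hr was 1.15 (SE 0.20, 2.23-fold, adjusted p = 0.0171), and from BPA 4 hr it was 1.13 (2.18-fold, adjusted p = 0.0167), the only member called of 10 between the BPA times (3.79% of all probes called, 1% higher). With slide as a fixed block these were 1.11 (adjusted p = 0.141) and 1.00 (adjusted p = 0.479), and neither call held. The call against control was also lost without control replicate 1 or 3 or BPA 24 hr replicate 2 (adjusted p from 0.0526 to 0.0662), and the call between times without any BPA 4 hr array or without BPA 24 hr replicate 2 (adjusted p from 0.0613 to 0.0886).

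Slc11a2 (chr15:100387898-100424209), the endosomal iron transporter DMT1, read 1.92, 1.95 and 1.89 in control. Its end probe read 1.37, 1.41 and 1.36 after KBrO3 4 hr and 1.41, 1.31 and 1.31 after KBrO3 24 hr, below every control array by 0.54 and 0.58, each just inside the fold limit. After co-exposure 4 hr it read 2.05, 2.02 and 2.03, above every control, by 0.11. After co-exposure 24 hr it read 1.29, 1.39 and 1.40, lower than control by 0.56, again inside the fold limit. The other probes of the gene did not give the same calls or, in part, the same sign. The probe designed to another Slc11a2 transcript was lower after KBrO3 4 hr (-0.83, adjusted p = 3.9e-07), and the coding probe printed above was higher after co-exposure 4 hr (0.73, adjusted p = 9.99e-05). The coding probe gave 0.18 after KBrO3 4 hr and the transcript probe -0.19 after co-exposure 4 hr, both uncalled and opposite in sign to the end probe.

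BPA alone raised Slc11a2 at both times. The end probe read 1.03, 1.01 and 0.69 in control, 1.71, 1.85 and 1.84 at 4 hr, and 1.74, 1.72 and 1.90 at 24 hr. No treated array overlapped the controls, and the fold changes were 1.85 (log2 0.89, SE 0.18, adjusted p = 0.0276) and 1.84 (log2 0.88, SE 0.18, adjusted p = 0.0332). The transcript probe was called at 4 hr (1.59, adjusted p = 0.0112) and the coding probe at 24 hr (1.21, adjusted p = 0.0414), and the values of these probes at the other time, 0.72 and 0.97, were not called. With slide as a fixed block the end probe's differences were 0.75 (adjusted p = 0.406) and 0.88 (adjusted p = 0.134), and neither was called. Leaving out any single control or BPA array also lost these calls, with adjusted p from 0.0504 to 0.136 at 4 hr and from 0.0571 to 0.0868 at 24 hr.

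Slc40a1 (chr1:45908070-45926532), the iron exporter, was near the detection limit in the first set. Its probe was well above background on 0 of 3 control arrays, and on 1 of 3 arrays each after KBrO3 4 hr, KBrO3 24 hr and co-exposure 4 hr. The KBrO3 24 hr arrays read -2.80, -7.24 and -7.55, the first of these well above background and far from the others. No test or fold is given there. In the second set all 9 arrays were well above background, with levels of -3.23, -4.25 and -3.97 in control, -2.68, -2.61 and -2.57 after BPA 4 hr, and -3.58, -4.10 and -3.01 after BPA 24 hr. The 4 hr arrays lay above all controls (log2 1.20, SE 0.33, 2.29-fold) but did not pass the test (adjusted p = 0.0818), and the 24 hr arrays overlapped the controls (log2 0.26, adjusted p = 0.733).

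**Figure D2:**
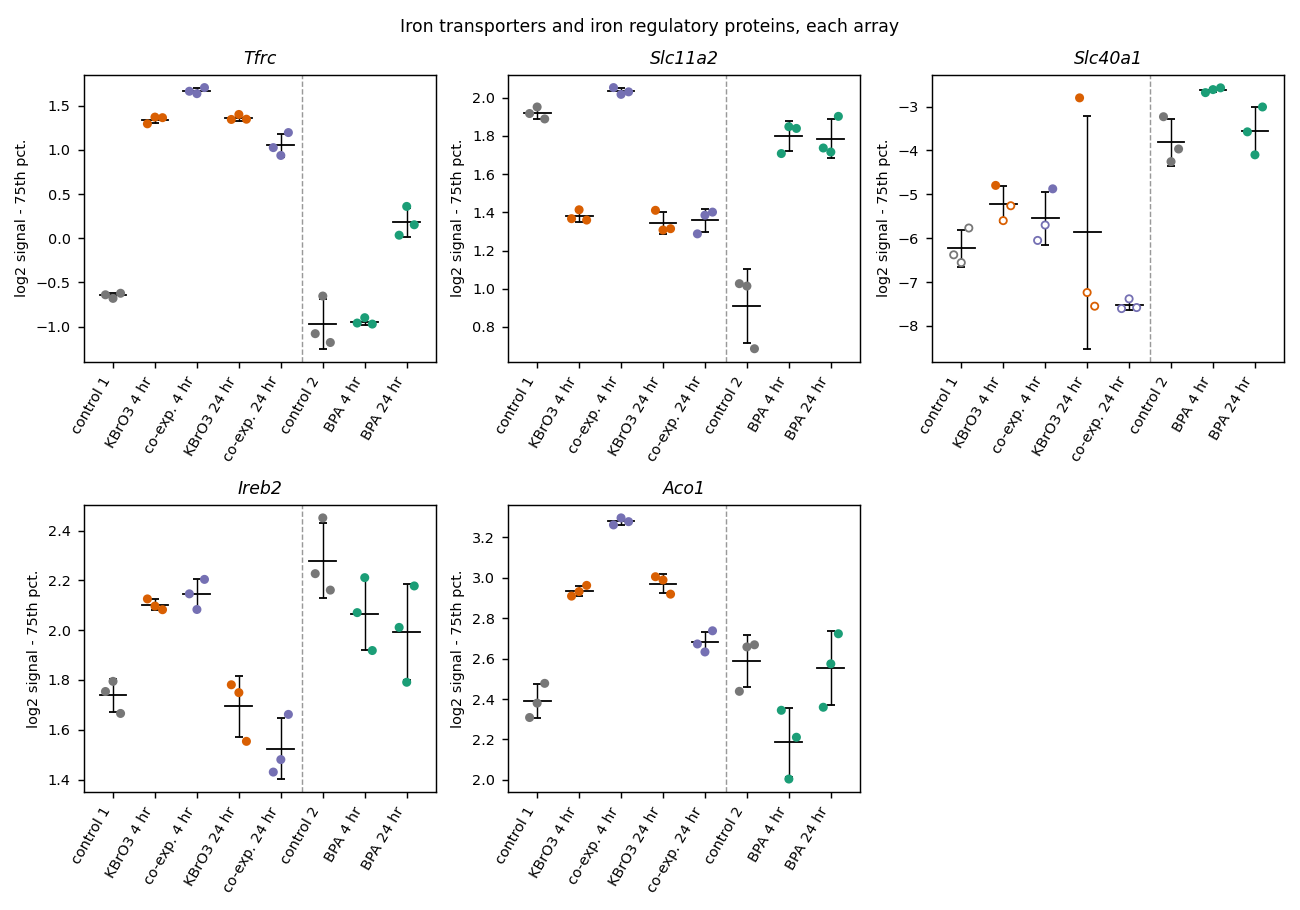
Log2 level of Tfrc, Slc11a2, Slc40a1, Ireb2 and Aco1 on each array, with a bar for the group mean, a whisker for the SD and a dashed line between the array sets. Tfrc lies between 0.94 and 1.71 on the KBrO3 and co-exposure arrays and at -0.62 or lower on their controls, and open circles show the Slc40a1 spots not well above background.

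Aco1 (chr4:40143265-40199009), which encodes IRP1 and the cytosolic aconitase, read 2.31, 2.38 and 2.48 in control. It read 2.91, 2.93 and 2.96 after KBrO3 4 hr and 3.01, 2.99 and 2.92 after KBrO3 24 hr, above every control by 0.55 and 0.58, which is just inside the fold limit. After co-exposure 4 hr it read 3.26, 3.30 and 3.28, the highest group, and rose 1.85-fold (log2 0.89, SE 0.05, adjusted p = 3.27e-09). After co-exposure 24 hr it read 2.67, 2.63 and 2.74, above control by 0.29. The other Aco1 probe was called in 0 of the first set's comparisons with control, and gave -0.04 after KBrO3 4 hr, -0.13 after co-exposure 4 hr and -0.26 after co-exposure 24 hr, opposite in sign to the brighter probe. With BPA alone Aco1 was not called, at -0.40 (adjusted p = 0.297) at 4 hr and -0.04 at 24 hr, where the other probe gave 0.08.

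Ireb2 (chr9:54862658-54912534), which encodes IRP2, read 1.75, 1.79 and 1.67 in control. KBrO3 4 hr arrays read 2.13, 2.10 and 2.08 and co-exposure 4 hr arrays 2.15, 2.08 and 2.20, all above control, by 0.36 and 0.41 and under the fold limit. At 24 hr the values came to 1.78, 1.75 and 1.55 after KBrO3, a difference of -0.04, and to 1.43, 1.48 and 1.66 after co-exposure, below the controls. The coding probe printed above gave larger differences at 4 hr, of 1.14 (adjusted p = 0.000729) after KBrO3 and 1.20 (adjusted p = 0.000464) after co-exposure, both called. Its group means were -4.29 in control, -3.15 after KBrO3 and -3.09 after co-exposure. Its later values, 0.46 for KBrO3 24 hr and 0.23 for co-exposure 24 hr, were uncalled and opposite in sign to the end probe. BPA alone gave -0.21 and -0.29 on the end probe, 0.24 and 0.07 on the coding probe and 0.50 and 0.15 on a further probe, and none was called. That further probe gave 0.02 after KBrO3 24 hr.

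Between 4 and 24 hr of co-exposure 7 members fell and 0 rose (55.6% of all probes called, 35% lower), with a median of -0.62 against -0.22 over all probes. Besides Hmox1 these were Ftl1 (1.94-fold), Fth1 (1.69-fold), Slc11a2 (1.60-fold), Ireb2 (1.54-fold), Tfrc (1.53-fold) and Aco1 (1.51-fold). No slide held both co-exposure times, which are linked only through KBrO3 24 hr arrays on their slides, and with slide as a random block the calls of Aco1 and Ireb2 were lost. After quantile normalization 3 members were called. With median scaling 2 were called, Hmox1 as lower and Blvra as higher (0.78), and the calls of Ftl1 (-0.49), Fth1 (-0.29), Slc11a2 (-0.22), Ireb2 (-0.16), Tfrc (-0.16) and Aco1 (-0.14) were lost. Of all probes called with median scaling 62.7% were higher, beside 37% with the main scaling. The Ireb2 call was lost without co-exposure 24 hr replicate 1 (-0.57), and those of Tfrc (-0.56) and Aco1 (-0.57) without replicate 2. The Slc11a2 transcript probe (-0.17) and the other Aco1 probe (-0.12) were not called.

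Setting co-exposure against KBrO3 alone addresses what BPA added to the oxidant. At 4 hr 1 of 9 members differed (20.1% of all probes called, 11.9% higher). Slc11a2 was 1.57-fold higher with BPA (log2 0.65, 95% interval 0.56 to 0.75, adjusted p = 2.85e-07), and its transcript probe gave 0.64 (adjusted p = 1.77e-05), while the coding probe stayed under the fold limit at 0.55. No slide held arrays of both groups, and with slide as a random block the Slc11a2 difference was 0.61 (adjusted p = 4.77e-05). Hmox1 differed by 0.12 (95% interval -0.02 to 0.26, adjusted p = 0.116), and by 0.19 (adjusted p = 0.0209) without co-exposure replicate 3, the array with the saturated spot, still under the fold limit. Ftl1 was lower by 0.28, and Tfrc and Aco1 were higher by 0.32 and 0.34, each with an adjusted p under 0.05 and a difference under the fold limit. With median scaling the Slc11a2 call was lost and 0 members were called.

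At 24 hr 3 of 9 members were higher with BPA and 0 lower (13.6% of all probes called, 5.35% higher; median 0.26 against -0.04). Hmox1 was 4.30-fold higher (log2 2.10, 95% interval 1.96 to 2.24, adjusted p = 4.68e-10). Ftl1 was 1.77-fold higher (log2 0.82, adjusted p = 1.41e-06) and Fth1 1.56-fold higher (log2 0.64, adjusted p = 1.1e-05). After quantile normalization Fth1 lay at 0.42, under the fold limit. On the slide that held arrays of both groups, the differences were 2.12 for Hmox1, 0.83 for Ftl1 and 0.66 for Fth1. Tfrc and Aco1 were lower with BPA by 0.31 and 0.29, under the fold limit, and Slc11a2 differed by 0.01 (95% interval -0.08 to 0.11), with -0.18 on its transcript probe.

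The change of this BPA-added difference from 4 to 24 hr was tested in the same fit and was called for 6 of 9 members (27.3% of all probes called, 11% with a positive and 16.3% with a negative change; median 0.20 against -0.06). It was positive for Hmox1 (1.98, adjusted p = 4.27e-08), Ftl1 (1.10, adjusted p = 4.35e-06) and Fth1 (0.59, adjusted p = 0.000394). It was negative for Slc11a2 (-0.64, adjusted p = 7.14e-06), Tfrc (-0.64, adjusted p = 6.6e-05) and Aco1 (-0.63, adjusted p = 1.75e-05). Among the 13 other genes of iron uptake, the change was positive for 6 and negative for 1 (median 0.57). With median scaling 3 members were called, all with a positive change, and the calls of Tfrc (-0.33), Slc11a2 (-0.33) and Aco1 (-0.32) were lost. Of all probes called with that scaling 74.4% had a positive change, beside 40.4% with the main scaling. The call of Fth1 was lost after quantile normalization (0.21, adjusted p = 0.121) and normexp background correction (0.63, adjusted p = 0.21), and that of Aco1 after normexp (adjusted p = 0.052). The Fth1 call was also lost without any 1 of 5 arrays (KBrO3 4 hr replicate 3, co-exposure 4 hr replicate 3, KBrO3 24 hr replicate 1, co-exposure 24 hr replicate 1 or 2), at 0.53 to 0.57, and that of Tfrc without co-exposure 24 hr replicate 2, at -0.58. The other Aco1 probe (-0.35) and the Slc11a2 coding probe (-0.53) were not called.

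**Figure D3:**
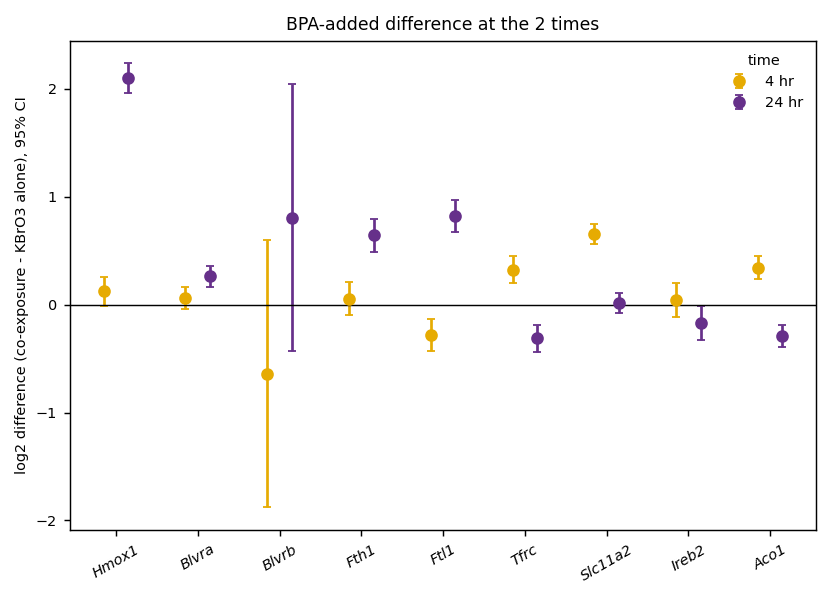
Log2 difference between co-exposure and KBrO3 alone at 4 and 24 hr for each tested member, with 95% confidence intervals. From 4 to 24 hr Hmox1 goes from 0.12 to 2.10 and Slc11a2 from 0.65 to 0.01.

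BPA alone at 24 hr and the BPA-added difference at 24 hr come from separate array sets with their own controls and can only be set side by side. For Hmox1 the values were 1.69 and 2.10, for Ftl1 0.85 and 0.82, and for Fth1 0.55 and 0.64. For Tfrc they were 1.15 and -0.31, and for Slc11a2 0.88 and 0.01.

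The other genes of the pathway came from a list of 68, of which 67 were on the array and 63 tested in the first set. After KBrO3 4 hr 10 rose and 18 fell, after KBrO3 24 hr 2 rose and 19 fell, after co-exposure 4 hr 12 rose and 20 fell, and after co-exposure 24 hr 12 rose and 11 fell. The median differences were -0.18, -0.17, -0.16 and 0.01, beside 0.06, -0.02, 0.08 and -0.07 over all tested probes. By direction, 23% of all tested probes were higher and 22.5% lower after KBrO3 4 hr, 14.1% and 19.1% after KBrO3 24 hr, 29.9% and 24.4% after co-exposure 4 hr, and 15.9% and 23.5% after co-exposure 24 hr. BPA alone raised 4 and lowered 1 of 64 tested genes at 4 hr, and raised 5 and lowered 2 at 24 hr, beside 4.24% and 3.41% of all probes called. With slide as a fixed block 0 probes of the array were called after BPA alone, in a fit with few arrays left to estimate the spread. Over all processing alternatives the listed genes called ran from 0 to 10 at 4 hr and from 0 to 19 at 24 hr.

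The regulators of heme oxygenase transcription were called at 4 hr and not at 24 hr. Nfe2l2 (Nrf2, the activator) rose by 1.35 (SE 0.05) after KBrO3 4 hr and 1.39 after co-exposure 4 hr. Bach1, the repressor, rose by 1.70 (SE 0.11) and 0.97, and Keap1, which marks Nrf2 for degradation, fell by 0.70 (SE 0.08) and 1.20. After BPA alone 0 of these 3 genes were called.

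Among heme transport genes, Slc48a1 (HRG1, which moves heme out of lysosomes) rose by 1.35 (SE 0.04) after KBrO3 4 hr, 1.19 after co-exposure 4 hr and 1.40 after co-exposure 24 hr. Flvcr1, a heme exporter, rose by 1.90 (SE 0.09) and 1.08 at 4 hr. Flvcr2, its relative, fell by 0.94 (SE 0.10) after KBrO3 4 hr, 1.38 after co-exposure 4 hr, 1.82 after KBrO3 24 hr and 0.90 after co-exposure 24 hr. The folate and heme carrier Slc46a1 fell by 0.86 and 1.11 at 4 hr. The transporter Abcg2 rose by 0.87 and the heme-binding protein Hebp1 fell by 0.85 after KBrO3 24 hr. Abcb6, a transporter linked to porphyrins, rose by 0.98 after co-exposure 24 hr and by 1.11 after BPA alone 24 hr.

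Of 8 heme synthesis genes, 4 fell after KBrO3 4 hr and 5 after co-exposure 4 hr, and 0 rose in either, beside 22.5% and 24.4% of all probes lower. Fech, which inserts iron into the ring, fell by 0.73 (SE 0.16) and 1.73 at 4 hr and by 1.73 and 1.36 at 24 hr, after KBrO3 and co-exposure. Cpox, an enzyme of the mitochondrial steps, fell by 0.93 (SE 0.12) and 1.27 at 4 hr and was higher by 0.59 after co-exposure 24 hr, a call lost without control replicate 3 or co-exposure 24 hr replicate 2 (both 0.47). Ppox, the enzyme before Fech, fell by 0.78 and 0.72 at 4 hr. After co-exposure 24 hr, 3 of the 8 were higher and 1 lower, among them Alas1, the first and rate-limiting enzyme, by 0.88 (SE 0.05), and Uros by 0.94 (SE 0.04), the latter at -0.073 after normexp background correction. BPA alone changed 0 of the 8 genes at either time.

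Of 13 genes of iron uptake and reduction, 11 fell and 0 rose after KBrO3 24 hr, with a median of -0.82, beside 19.1% of all probes lower. After co-exposure 24 hr 4 fell and 1 rose, with a median of -0.33. At 4 hr 4 fell and 1 rose after KBrO3, and 6 fell and 0 rose after co-exposure. After KBrO3 24 hr the metalloreductase Steap4 fell by 4.23 (SE 0.10) and Lcn2, a siderophore-binding protein also known as an inflammation marker, by 3.25 (SE 0.06). After co-exposure 24 hr Lcn2 fell by 2.29. On the co-exposure 24 hr arrays the Steap4 spot was never well above background, which put it at least 33.6-fold under control. Cybrd1, a ferric reductase, was likewise not well above background at 24 hr and lay at least 2.43-fold under control for KBrO3 and at least 1.94-fold for co-exposure. These bounds set the control mean against the lowest detectable signal of the treated arrays. At 4 hr Steap4 fell by 2.25 and 1.93, and its relative Steap2 by 1.48 and 1.22. Tfr2, the second transferrin receptor, was called lower at 4 hr, at -1.74 and -1.95, but only 1 array of 3 was well above background in either treated group, so the size of these differences is uncertain. The zinc and iron importer Slc39a8 fell by 1.55 after KBrO3 24 hr and by 1.24 after co-exposure 4 hr, Steap1 was higher by 0.72 after co-exposure 24 hr, and transferrin itself (Trf) was higher by 0.64 after KBrO3 4 hr but at -0.58 after normexp. BPA alone moved Lcn2 the other way, by 3.58 (SE 0.43, 11.95-fold, adjusted p = 0.00323) at 4 hr and 4.24 (18.9-fold, adjusted p = 0.00318) at 24 hr, and raised Steap1, a relative of Steap4, by 1.56 and 1.74. It lowered Cybrd1 at 24 hr (-1.55, SE 0.22, 2.93-fold, adjusted p = 0.00782), and raised Slc39a8 by 1.40 at 24 hr and its relative Slc39a14 by 1.02 at 4 hr. With slide as a fixed block all of these BPA calls were lost, with Lcn2 at 4.32 (adjusted p = 0.154) and 3.78 (adjusted p = 0.0675), and so they were after normexp background correction, where Lcn2 lay at 1.85 and 2.45 and Slc39a8 at 0.15. The 4 hr Steap1 call was lost without control replicate 2 or 3 or BPA 4 hr replicate 2 or 3 (adjusted p from 0.0565 to 0.0836), and that of Slc39a14 without any of 5 arrays (adjusted p from 0.0526 to 0.142).

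Haptoglobin (Hp), the plasma binder of free hemoglobin, fell by 5.41 (SE 0.07) after KBrO3 24 hr and by 7.07 after co-exposure 24 hr, and rose by 1.07 (SE 0.21) and 1.92 after BPA alone. Its 4 hr BPA call was lost without control replicate 1 or 3 or any BPA 4 hr array (adjusted p from 0.0595 to 0.114), and both BPA calls with slide as a fixed block. Its level in control cells was 7.79 ± 0.04 (SD, n = 3) on first-set arrays and 2.31 ± 0.15 on second-set arrays. The sets were processed separately, so these values can only be set side by side, and the cause of their difference was not tested. Among the other scavengers, hemopexin (Hpx), which binds heme, was higher by 0.68 after KBrO3 4 hr (-0.25 after normexp) and by 1.19 after co-exposure 4 hr, and its receptor Lrp1 fell by 0.64 after co-exposure 4 hr and by 1.42 and 1.45 at 24 hr.

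In the iron export list 3 of 4 tested genes were lower at 24 hr in either treatment, beside 19.1% (KBrO3) and 23.5% (co-exposure) of all probes lower. These were Tmprss6, Bmp6 and Cp, of which Cp (ceruloplasmin, a ferroxidase) fell by 1.06 (SE 0.07) and 1.92. Bmp6, an inducer of hepcidin, fell by 1.12 and 1.56, and Tmprss6, a protease that restrains it, by 2.61 and 3.45. Tmprss6 was also lower after BPA 24 hr (-1.58, adjusted p = 0.0445), a call lost without any single control or BPA 24 hr array. In the iron storage list of 7, the iron chaperone relatives Pcbp3 and Pcbp4 parted at 4 hr. Pcbp3 rose by 0.79 after KBrO3 4 hr, 1.51 after co-exposure 4 hr and 0.69 after co-exposure 24 hr. Pcbp4 fell by 0.74 and 1.19 at 4 hr and by 1.09 after BPA 4 hr, the last lost without any BPA 4 hr array. Fbxl5, an iron sensor that marks IRP2 for degradation, fell by 0.62 after KBrO3 4 hr. After co-exposure 4 hr the ferritinophagy receptor Ncoa4 was higher by 0.61, a call lost without co-exposure replicate 1 (0.58), and mitochondrial ferritin (Ftmt) by 1.38, but at -0.35 after normexp. Of 16 genes of mitochondrial iron and iron-sulfur cluster assembly, 5 rose and 0 fell after co-exposure 24 hr, beside 15.9% of all probes higher. At 4 hr 2 rose and 4 fell after KBrO3, and 3 rose and 4 fell after co-exposure. The mitochondrial iron importer Slc25a37 rose by 0.76 and 1.34 at 4 hr and by 0.65 (SE 0.06) after co-exposure 24 hr, when its relative Slc25a28 rose by 0.66 and the assembly factor Bola3 by 0.62. Glrx5, a carrier of the cluster, rose by 0.86 after KBrO3 24 hr and by 0.95 and 0.77 (SE 0.07) after co-exposure at 4 and 24 hr. The cochaperone Hscb fell by 0.80 and 0.95 at 4 hr and the assembly factor Isca2 by 0.69 and 0.92.

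**Figure D4:**
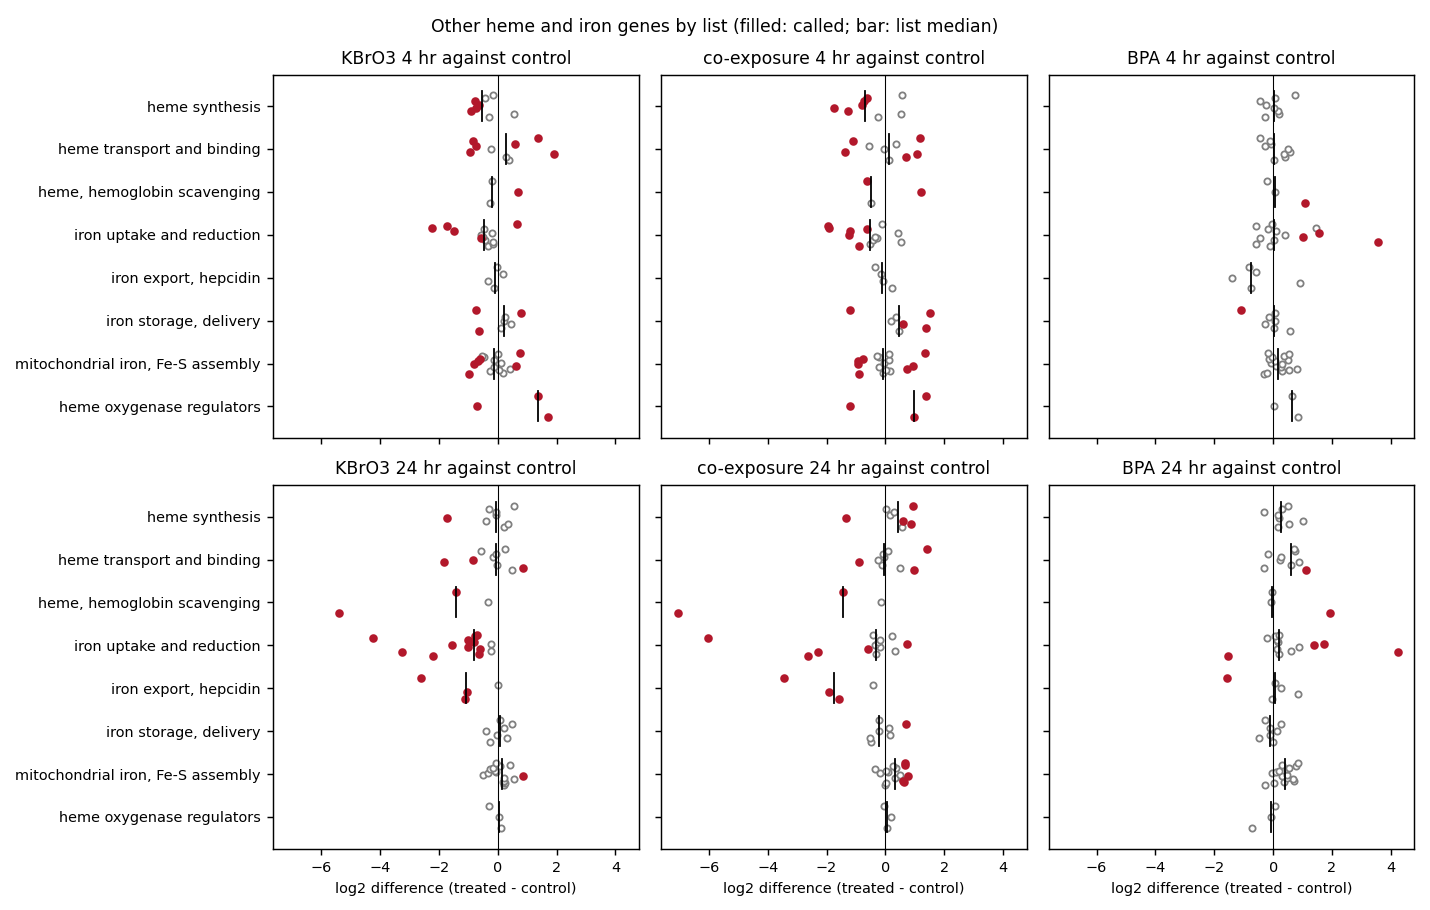
Log2 difference from control of every tested gene in the heme and iron lists, by list, for KBrO3 alone, co-exposure and BPA alone at 4 and 24 hr, with filled points for called genes and a bar for the list's median. Hp at -7.07 and Steap4, which was not well above background there, are the lowest points after co-exposure 24 hr.

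The probes whose pattern over the 24 arrays was most like that of Hmox1, among 27180 probes and with each value taken relative to its own set's controls, belonged to Txnrd1 (Pearson r = 0.988), Srxn1 (0.987), Ivns1abp (0.984), Ier5 (0.983) and Zhx3 (0.982). Txnrd1 (thioredoxin reductase 1) and Srxn1 (sulfiredoxin) are antioxidant enzymes. These arrays share treatments, so r is given as a description only.

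The core letters of the antioxidant response element, TGACNNNGC, were searched on both strands in RefSeq promoter windows of GRCm38.p6, from 250 bases before to 50 after each gene start. They were found in 4071 of 32851 windows (12.39%) and in 1 of 10 windows of the 7 members with an entry, that of Blvra. A stretch of it is shown with the match, which reads on the minus strand, in capitals. The window is set on a transcript start at 127070657, inside the gene interval given above, and the match lies 49 to 41 bases before that start.
Blvra promoter, GRCm38.p6 chr2:127070578-127070646, plus strand: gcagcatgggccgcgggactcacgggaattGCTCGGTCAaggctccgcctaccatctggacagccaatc
Hmox1, Slc40a1 and Slc11a2 had no window in the table used. A match is a description of letters in the window, and Blvra itself was called in 0 of the 12 comparisons.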

How the data were processed

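Gene expression was measured on 24 Agilent 4x44K whole mouse genome arrays, 1 Cy3-labelled sample each. The authors deposited scanner files, and per the file headers their signal intensity is background-subtracted by Agilent Feature Extraction 9.5.3.1 (first set) or 12.0.0.7 (second set). The submitters' processing notes name release 12.0. The deposited series table held the same intensity for 1080432 of 1080432 values, within rounding.

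Here, log2 processed signal minus each array's 75th percentile was averaged over spots of a probe, without control spots and outlier flags. A probe was tested in a set where some group had it well above background on all its arrays (27310 and 31806 probes) with limma 3.58.1 in R 4.3.3, all groups of a set in 1 fit. The sets were fitted separately. Calls needed an adjusted p under 0.05 (Benjamini-Hochberg) and 1.5-fold. The fits were tested on simulated data first. The study's methods used an error-weighted ANOVA with Bonferroni p under 0.01, tried as an alternative.

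Each member is represented by its brightest probe, with other probes given where their call differs or, against control, their sign. From each list, the genes called against control were named, at most 4 per list and comparison, largest difference first, and some such genes are not reported here. Genes were named through RefSeq accessions and symbols. Probe positions are mm7, as in the first set's files, and gene positions are GRCm38.p6. The members and lists were chosen with earlier results of these data known. Replicate numbers did not pair arrays: same-number deviations correlated at a mean of -0.029 (range -0.21 to 0.11) for the first set and 0.002 (-0.38 to 0.65) for the second. P-values measure the spread between these arrays, whose number limits the precision. The main fit held no slide term. Arrays sharing a slide correlated at 0.634 among first-set arrays, beside 0.115 among second-set arrays. Since first-set replicates largely shared slides, p-values there leave out part of the spread between slides and may overstate the precision. Alternatives were other scalings and background corrections, probe filters, slide or replicate as a block, other tests, and each replicate left out. For the second set, normexp used the median spot signal.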

Additional observations from a re-analysis of the deposited data

Results flagged for a closer look

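The difference between co-exposure and KBrO3 alone changed between 4 and 24 hr for 6 of 9 tested members, by the test of that change itself in limma over 3 arrays a group. The change in the log2 difference was 1.98 for Hmox1 (adjusted p = 4.27e-08), 1.10 for Ftl1 (adjusted p = 4.35e-06) and 0.59 for Fth1 (adjusted p = 0.000394). It was -0.64 for Tfrc (adjusted p = 6.6e-05), -0.64 for Slc11a2 (adjusted p = 7.14e-06) and -0.63 for Aco1 (adjusted p = 1.75e-05). The difference itself went from 0.32 to -0.31 for Tfrc, from 0.65 to 0.01 for Slc11a2 and from 0.34 to -0.29 for Aco1, and the calls of these 3 changes were lost with median scaling. No slide held both groups at 4 hr, so a slide effect cannot be told apart from these changes. The Hmox1 level of 1 co-exposure 4 hr array was saturated. The change for Fth1, Tfrc, Slc11a2 and Aco1 lies near the fold limit of 1.5.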

How the results depend on the processing

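Counts of called members are given where they moved by over 1.5 times, with the count in the report in parentheses at its first mention. Over all processing alternatives they ran from 3 to 9 after KBrO3 4 hr, 2 to 5 after KBrO3 24 hr, 4 to 7 after co-exposure 4 hr, 2 to 8 after co-exposure 24 hr and between co-exposure times, 2 to 6 for co-exposure against KBrO3 at 24 hr, 2 to 7 for the change of the BPA-added difference, and 0 to 3 and 0 to 4 after BPA 4 and 24 hr. After normexp background correction, with slide as a fixed block, or under Bonferroni limits (limma or the error-weighted ANOVA), 0 members were called after BPA at 4 hr (2), at 24 hr (3) or between these times (1). Fitting only the groups compared gave 1 after BPA 4 hr, 0 after BPA 24 hr and 2 for co-exposure against KBrO3 at 4 hr (1). The replicate block, where numbers do not pair arrays, gave 1 after BPA 4 hr. Median scaling gave 1 after BPA 4 hr, 5 after co-exposure 24 hr (3), 0 for co-exposure against KBrO3 at 4 hr, 2 for co-exposure between times (7), with Blvra gained as higher and 6 calls lost, and 3 for the change of the BPA-added difference (6), all positive. For that change, Bonferroni limits gave 3 and the error-weighted ANOVA 2. For co-exposure between times, quantile normalization gave 3, and the 75th percentile over detected probes and the error-weighted ANOVA gave 4 each. With no fold limit 9 members were called after KBrO3 4 hr (4), 5 after KBrO3 24 hr (2), 7 after co-exposure 4 hr (4), 8 after co-exposure 24 hr, 4 and 6 for co-exposure against KBrO3 at 4 and 24 hr (1 and 3), and 5 for KBrO3 between times (3), while 46.7% to 78.6% of all probes were called in these comparisons.

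With each replicate left out in turn, members called ranged from 4 to 5 after KBrO3 4 hr, 2 to 5 after KBrO3 24 hr, 4 to 5 after co-exposure 4 hr, 3 to 4 after co-exposure 24 hr, 1 to 2 and 3 to 4 for co-exposure against KBrO3 at 4 and 24 hr, 3 to 4 for KBrO3 between times, 5 to 7 for co-exposure between times, 4 to 7 for the change of the BPA-added difference, 0 to 2 after BPA 4 hr, 1 to 2 after BPA 24 hr and 0 to 1 between the BPA times. The 5 after KBrO3 24 hr came without control replicate 3, where Blvrb was at -0.60 against up to 0.86 with another array left out. Leaving that array out of the comparisons between treatments was chosen after seeing the data.

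Uncalled differences that the report prints changed sign as follows. Median scaling gave 0.022 for Hmox1 and 0.11 for Ireb2 after KBrO3 24 hr, -0.028 for Slc11a2 after co-exposure 4 hr, 0.10 for Ireb2 after co-exposure 24 hr, -0.019 and -0.086 for Hmox1 and Fth1 between co-exposure and KBrO3 at 4 hr, and 0.084 and 0.072 for Blvra and Aco1 after BPA 24 hr. Normexp gave 0.24, 0.15 and 0.20 for Hmox1, Ftl1 and Ireb2 after KBrO3 24 hr, 0.0043 for Ireb2 after co-exposure 24 hr, -0.029 for Slc11a2 between co-exposure and KBrO3 at 24 hr, and 0.11, 0.055 and -0.38 for Blvra, Aco1 and Slc40a1 after BPA 24 hr. For Slc11a2 between co-exposure and KBrO3 at 24 hr, quantile normalization gave -0.034, the percentile over detected probes -0.030 and the mean of all probes of a gene -0.050. For Ireb2 after KBrO3 24 hr, that percentile gave 0.0078, slide as a random block 0.020 and the mean of all probes 0.14. The mean of all probes also gave 0.44 and 0.30 for Blvra after BPA 4 and 24 hr, 0.18 for Ireb2 after BPA 4 hr and 0.020 for Aco1 after BPA 24 hr. Slide as a fixed block gave 0.10 for Blvra after BPA 24 hr and -0.036 for Aco1 between the BPA times. With each replicate left out, ranges that crossed 0 were -0.087 to 0.027 for Ireb2 after KBrO3 24 hr, -0.0035 to 0.034 for Tfrc between KBrO3 times, -0.0079 to 0.049 for Slc11a2 between co-exposure and KBrO3 at 24 hr, -0.15 to 0.065 for Blvra, -0.12 to 0.060 for Aco1 and -0.020 to 0.55 for Slc40a1 after BPA 24 hr, and -0.0046 to 0.23 for Fth1 between the BPA times. Of 18 further uncalled member differences, each under 0.25 on the log2 scale, 13 changed sign in at least 1 alternative and 0 were called with the fold limit kept. Of the named list genes, normexp turned Trf (-0.58) and Hpx (-0.25) after KBrO3 4 hr, Ftmt after co-exposure 4 hr (-0.35) and Uros after co-exposure 24 hr (-0.073), all called higher in the report. Of 83 named list differences of the first set, normexp lost the call of 15 more, the error-weighted ANOVA with Bonferroni limits lost 31 and Bonferroni limits in limma 23. All 12 of the second set were lost under each of these and with slide as a fixed block. Over processing alternatives, listed genes called ran from 14 to 54 after KBrO3 4 hr, 14 to 47 after KBrO3 24 hr, 21 to 50 after co-exposure 4 hr and 13 to 47 after co-exposure 24 hr. Of 39 called member differences, 0 changed sign in any alternative run. Median scaling moved the median of all probes by up to 0.46 (co-exposure between times), and normexp moved it by -0.51 after KBrO3 4 hr. The causes were not tested. Slide as a random block changed no BPA call, and lost the calls of Aco1 and Ireb2 between co-exposure times and of Fth1 in the change of the BPA-added difference. It gained calls of Aco1 after KBrO3 24 hr and of Blvrb after co-exposure 24 hr (1.46, adjusted p = 0.0471), between KBrO3 times (-2.37, adjusted p = 0.00443) and in the change of the BPA-added difference (2.46, adjusted p = 0.0264). The low signal of Slc40a1 limits what the first set can show of it.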

Other observations

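Heme synthesis mRNAs were compared between the co-exposure times. Of 8 genes, 5 were higher at 24 than at 4 hr and 0 lower in limma's fit (3 arrays a group), with a median difference of 0.74 beside -0.22 over all tested probes, of which 20.6% were higher and 35% lower. Among them were Alad (0.82, SE 0.06), Urod (0.66, SE 0.04), Cpox (1.86, SE 0.12) and Ppox (1.01, SE 0.05). The balance over all probes turned with median scaling, where 62.7% of called probes were higher, beside 37% in the main fit, and the median moved by 0.46. After KBrO3 alone Uros (0.72, SE 0.04) and Ppox (0.71, SE 0.05) were higher at 24 hr and Fech was lower. The folate and heme carrier Slc46a1 was higher at 24 hr of co-exposure by 1.20 (SE 0.06). Nfe2l2 and Bach1 were lower at 24 than at 4 hr after co-exposure, by -1.44 (SE 0.05) and -0.93 (SE 0.11), and Keap1 was higher by 1.39 (SE 0.08).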
